A study of Homo sapiens with 4 samples.

Results

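The DNA replication machinery was examined here as a set of 49 genes of the 20348 in the deposited table. The members were chosen by name, as the genes that license, unwind, prime, copy and stabilise the replication fork and supply its nucleotides. All 49 were found and all had counts in every library. They were measured in K562, a human line from chronic myeloid leukemia, and in THP-1, a human line from acute monocytic leukemia. Each line had been kept for 72 h in 100 nM periplocin, a plant-derived cardiac glycoside, or in its vehicle DMSO (the labels call the latter a blank control). There was 1 poly-A RNA library per condition, 4 in all. The question was how the expression of this gene set differed between periplocin and DMSO within each line, and whether the lines differed in that response.

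Replication begins when the origin recognition complex (ORC), with CDC6 and CDT1, loads the ring-shaped MCM2-7 helicase onto origins in G1. In S phase CDC45 and the GINS complex join the ring and start unwinding, DNA polymerase alpha with primase lays down primers, and polymerases delta and epsilon extend them behind the sliding clamp PCNA. Many of these genes are classical targets of E2F transcription factors and are transcribed most strongly around the G1 to S transition, so their RNA is widely read as a mark of proliferating cells.

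A library held between 16381149 and 20622694 counts. Levels are given as CPM, the counts of a gene scaled to a common library total. Between 2.07% and 5.62% of a library's counts came from mitochondrially encoded genes, the lowest share being in K562 periplocin and the highest in K562 DMSO. Each line carried its own defining markers. Summed over 7 erythroid genes (HBG1, HBG2, HBZ, HBE1, GATA1, TFRC and KLF1), K562 had 2414 CPM in DMSO and 9650.1 in periplocin, against 249.5 and 241.4 in THP-1, where TFRC made up nearly all of it. Summed over 9 monocytic genes (LYZ, SPI1, CD33, CSF1R, ITGAM, MNDA, FCGR1A, CD68 and CTSS), THP-1 had 1092 CPM in DMSO and 1888 in periplocin, against 114.4 and 143 in K562. In K562, 6 of the 7 erythroid genes were at least 2-fold higher in periplocin (8.18% of all genes). In THP-1, 4 of the 9 monocytic genes were (8.27% of all genes). Another 4 of those 9 (LYZ, CD33, CSF1R and MNDA) were lower in THP-1 periplocin beyond counting error, with log2 fold changes between -0.60 and -0.20. The part of these shifts in the results on replication genes was not tested. With 1 library per condition there was no replicate check. Except in the fit of cell line and treatment together, every p-value and standard error (SE) given here covers counting error only. Such values compare these libraries rather than the conditions. In such bulk samples, fewer cells in S phase and less RNA per cell cannot be told apart.

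Promoter sequence was available for 43 of the 49 members, as RefSeq windows on GRCh38.p14 from 250 bases before to 50 bases after the start site. The windows were searched on both strands for 4 words of the E2F consensus, TTTCCCGC, TTTCGCGC, TTTGCCGC and TTTGGCGC, which can overlap each other. At least 1 word was present in 21 of the 43 members (48.8%), against 3.99% of all 27305 genes with a window and 6.59% of 10732 genes with at least 1 CPM in a line. The word CCAAT, the NF-Y box, was in 27 of the 43 members (62.8%) and in 39.7% of all genes. The helicase genes MCM6, MCM2 and MCM3, shown because they were among the members with the most E2F words, have the following sequences from 250 bases before to 20 bases after the start, with E2F words in capitals. MCM6 was read from chr2:135876424-135876693 (minus strand), MCM2 from chr3:127598161-127598430 (plus strand) and MCM3 from chr6:52284723-52284992 (minus strand).
MCM6: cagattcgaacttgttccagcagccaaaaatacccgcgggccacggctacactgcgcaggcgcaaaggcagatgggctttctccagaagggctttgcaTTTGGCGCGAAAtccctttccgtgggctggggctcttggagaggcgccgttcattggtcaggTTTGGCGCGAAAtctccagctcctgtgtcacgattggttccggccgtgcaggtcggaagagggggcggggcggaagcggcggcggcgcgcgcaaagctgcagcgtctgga
MCM2: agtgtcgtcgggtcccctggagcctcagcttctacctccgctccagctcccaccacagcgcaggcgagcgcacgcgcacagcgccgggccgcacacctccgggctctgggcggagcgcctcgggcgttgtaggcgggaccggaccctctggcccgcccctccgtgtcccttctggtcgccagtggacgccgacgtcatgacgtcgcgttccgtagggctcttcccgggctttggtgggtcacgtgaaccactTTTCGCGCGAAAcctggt
MCM3: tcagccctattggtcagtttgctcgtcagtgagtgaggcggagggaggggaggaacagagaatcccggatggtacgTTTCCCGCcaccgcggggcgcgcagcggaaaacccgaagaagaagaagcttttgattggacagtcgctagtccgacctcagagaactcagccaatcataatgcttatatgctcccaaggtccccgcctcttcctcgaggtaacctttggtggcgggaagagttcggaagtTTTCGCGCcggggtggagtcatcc
In MCM6 the capitals hold 2 pairs of overlapping words, beginning 152 and 90 bases before the start. In MCM2 they form 1 overlapping pair that begins 2 bases after the start, and in MCM3 there are single words 174 and 4 bases before it. A match of letters is a description and does not show binding. The members did not separate by it. With an E2F word in the window the median log2 fold change (periplocin over DMSO) was -0.17 in K562 and -0.74 in THP-1 over 21 members, and without one it was -0.11 and -0.66 over 22. Of the members called changed in the comparisons described next, ORC3, POLA2, POLE2 and CDT1 had 1 E2F word in the window, RRM2, PRIM1, POLD1, POLD2 and CDC45 had 0, and GINS4 had no window.

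In THP-1 the replication genes were lower in periplocin almost throughout, while in K562 they were divided. The summed level of the 49 genes in THP-1 was 5752 CPM with DMSO and 3790 with periplocin, and in K562 it was 6226 and 6235 CPM. With TMM-scaled library sizes, which differ slightly from the totals behind CPM, the log2 fold change of the summed counts was -0.59 (SE 0.01) in THP-1 and -0.01 (SE 0.01) in K562. In THP-1, 46 of 49 members were lower in periplocin and 3 were higher (ORC4, RFC4 and PRIM2), where 51.5% of 12341 genes with at least 1 CPM were lower. In K562, 29 were lower and 20 higher, where 50.8% of 11862 genes were lower. The median log2 fold change of the members was -0.68 in THP-1 and -0.17 in K562, against -0.02 and -0.01 over all genes of at least 1 CPM.

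**Figure D1:**
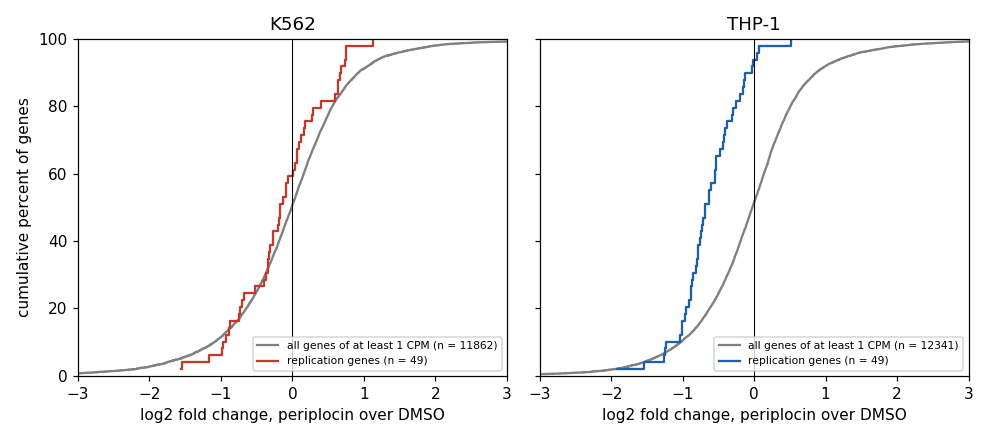
Cumulative percent of genes (vertical axis) at or below each log2 fold change of periplocin over DMSO (horizontal axis), for the 49 replication genes (coloured steps) and for all genes of at least 1 CPM (grey), in K562 and THP-1. The THP-1 steps lie to the left of the grey curve over most of their length, with a median of -0.68. In K562 the medians lie closer together, at -0.17 for the replication genes and -0.01 for all genes.

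A gene was called changed where the adjusted p of edgeR's exact binomial test was below 0.05 and the change was at least 2-fold. In THP-1, 8 members fell (RRM2, PRIM1, ORC3, POLA2, POLD2, CDC45, POLE2 and CDT1) and 0 rose, where 9.76% of 16016 genes fell and 8.27% rose. In K562, 3 members fell (RRM2, PRIM1 and GINS4) and POLD1 rose, where 10.1% of 15912 genes fell and 8.18% rose. The share of members called lower was 16.3% in THP-1 and 6.12% in K562, beside 9.76% and 10.1% of all genes. CDT1 (-1.01), POLE2 (-1.01) and CDC45 (-1.03) lay just beyond the limit in THP-1, and POLD2 (-0.98) just short of it in K562. Whether these shares differ from the background was not tested. With a 1.5-fold limit, 28 members (57.1%) were lower and 0 higher in THP-1 (17.6% and 15% of all genes), and 12 were lower and 9 higher in K562 (17.4% and 15.4%). Without a limit on size, 43 members were lower and 1 higher beyond counting error in THP-1, where 31.2% and 30.3% of all genes tested were, and 26 were lower and 16 higher in K562, where 30% and 29.4% were. The members have more counts than most genes tested, so smaller changes pass this test in them. Of the 46 members lower in THP-1, 38 were lower by less than 2-fold.

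**Figure D2:**
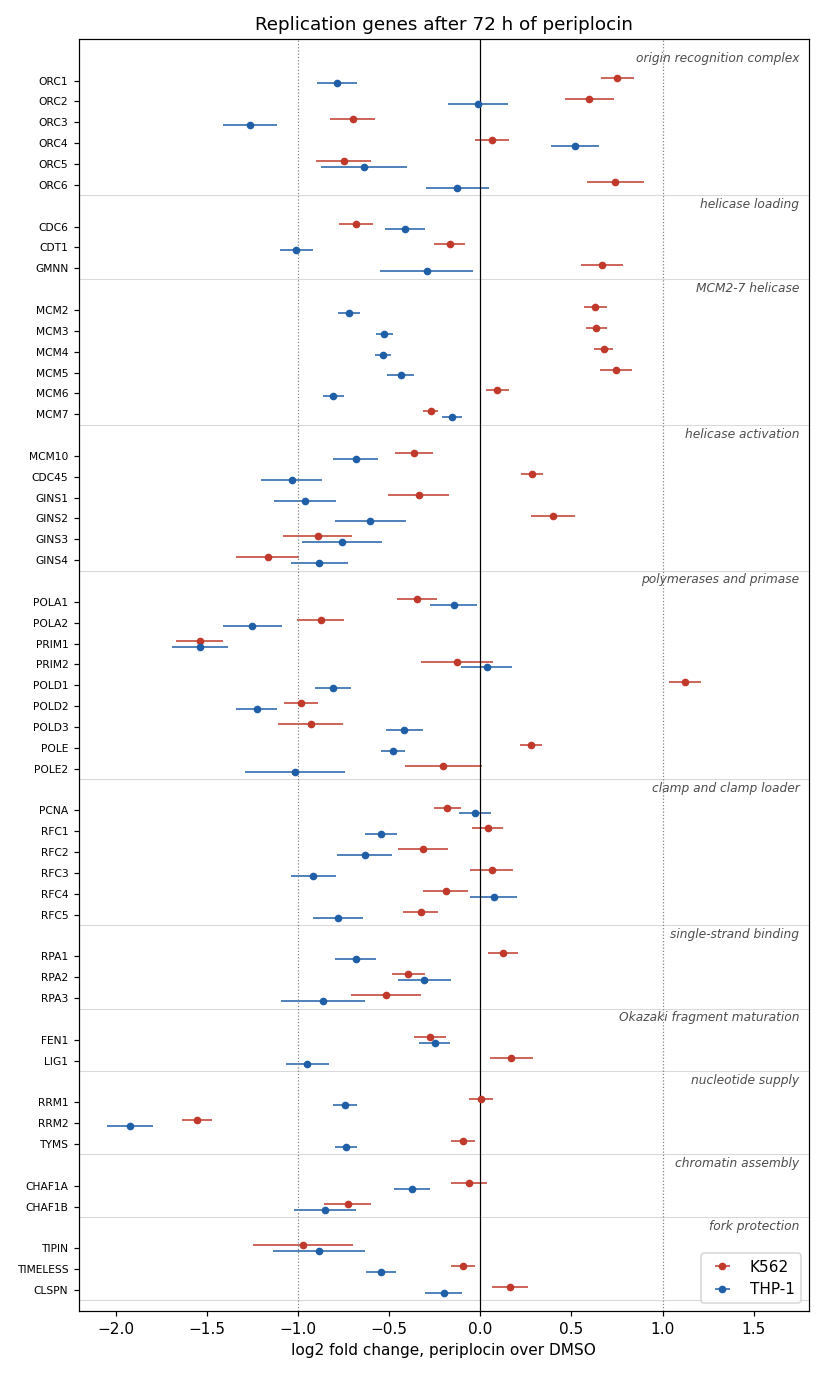
Log2 fold change of periplocin over DMSO (horizontal axis) for each of the 49 genes (vertical axis, grouped by role) in K562 (red) and THP-1 (blue). Points are the fitted values, horizontal lines are 95% counting intervals and dotted lines mark a 2-fold change. Most blue points lie left of 0, RRM2 and PRIM1 are far left in both colours, and POLD1 is the red point furthest right.

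In what follows, a pair of counts is for DMSO first and periplocin after it, and a value in brackets with an SE is the log2 fold change. The largest decrease in both lines was in RRM2, the small subunit of ribonucleotide reductase, which makes deoxyribonucleotides and sets their supply in S phase. RRM2 (ENSG00000171848, chr2:10120698-10131419, plus strand, GRCh38) had 4505 counts in K562 DMSO and 1563 in K562 periplocin, and 2765 and 623 in the same order in THP-1. Both periplocin libraries were below both DMSO libraries, at 94.4 and 35.2 CPM against 275 and 134. The log2 fold change was -1.55 (SE 0.04) in K562 and -1.92 (SE 0.06) in THP-1, that is, 2.94-fold and 3.78-fold lower. RRM1, the large subunit of the same enzyme, did not move with it in K562, where it had 3686 and 3761 counts (log2 fold change 0.00, SE 0.03). In THP-1 RRM1 was lower, at 5660 and 2886 counts (-0.74, SE 0.03). The count ratio of RRM2 to RRM1 was 1.22 in K562 DMSO and 0.416 in K562 periplocin, and 0.489 and 0.216 in THP-1. Per kb of transcript, RRM2 was slightly above RRM1 in K562 DMSO (80.2 and 73.2 CPM per kb) and below it in the other 3 libraries. That scale compares genes only approximately, as it rests on the transcript length chosen for each gene. TYMS, thymidylate synthase, which makes dTMP, had 3767 and 3599 counts in K562 (-0.09, SE 0.03) and 6484 and 3320 in THP-1 (-0.74, SE 0.03). Of the exon bases of TYMS, 58.2% are shared with ENOSF1 on the opposite strand, which had 589 and 519 counts in K562 and 1007 and 299 in THP-1, and 27.9% of those of RRM2 with another transcript on its own strand. Reads of shared stretches could have gone to either gene. Pseudogenes named after PCNA, RPA2, RRM2, TYMS, POLD2, RFC3, RFC5 and FEN1 are annotated, which makes the counts of these 8 genes less certain.

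Primase and the polymerases held most of the other large changes. PRIM1, the catalytic subunit of primase, which makes the RNA primers (ENSG00000198056, chr12:56731596-56752373, minus strand), had 1852 and 649 counts in K562 DMSO and periplocin, and 1515 and 445 in THP-1. Its log2 fold change was alike in the lines, -1.54 (SE 0.07) in K562 and -1.54 (SE 0.08) in THP-1, and the difference between them was within counting error (adjusted p = 0.986, edgeR likelihood ratio test). PRIM2, its regulatory partner, was within counting error in both lines, at 424 and 395 counts in K562 (-0.13, SE 0.10) and 851 and 743 in THP-1 (0.03, SE 0.07). The count ratio of PRIM1 to PRIM2 went from 4.37 to 1.64 in K562, and in THP-1 it went from 1.78 to 0.599. Of the exon bases of PRIM1, 26% are shared with AC117378.1 on the same strand, which had between 4 and 13 counts in a library. POLA2, the B subunit of polymerase alpha, had 1308 and 726 counts in K562 (-0.88, SE 0.07) and 1167 and 418 in THP-1 (-1.25, SE 0.08). POLA1, the catalytic subunit, moved less, with log2 fold changes of -0.35 (SE 0.06) in K562 and -0.15 (SE 0.07) in THP-1. In both pairs 1 partner was lower by more than the other. Of the exon bases of POLA2, 53.7% are shared with AP000944.2 on the same strand, which had between 20 and 51 counts in a library.

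Polymerase delta, which copies the lagging strand, had the widest spread between its subunits in K562 of the 10 complexes compared. POLD1, the catalytic subunit (ENSG00000062822, chr19:50384204-50418016, plus strand), had 1482 counts in K562 DMSO and 3283 in K562 periplocin, and 2482 and 1209 in the same order in THP-1. It was the sole member that rose at least 2-fold in either line, by 1.12 (SE 0.05) in K562, and in THP-1 its log2 fold change was -0.81 (SE 0.05). POLD2, the accessory subunit that holds the complex together, went the other way in K562, from 2810 to 1448 counts (-0.98, SE 0.05), and from 2338 to 852 in THP-1 (-1.23, SE 0.06). At 1.98-fold lower, POLD2 missed the 2-fold limit in K562. The count ratio of POLD2 to POLD1 went from 1.90 to 0.441 in K562, and in THP-1 it went from 0.942 to 0.705. POLD3, a further accessory subunit, had 715 and 382 counts in K562 (-0.93, SE 0.09) and 1984 and 1267 in THP-1 (-0.42, SE 0.05), so it too was lower in both lines. In polymerase epsilon, the leading-strand enzyme, the catalytic POLE had 3919 and 4843 counts in K562 (0.28, SE 0.03) and 4769 and 2921 in THP-1 (-0.48, SE 0.03). Its partner POLE2 had 384 and 340 counts in K562 (-0.20, SE 0.11), which was within counting error, and 358 and 151 in THP-1 (-1.01, SE 0.14). The catalytic subunits POLD1 and POLE were therefore higher in K562 periplocin and lower in THP-1 periplocin.

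**Figure D3:**
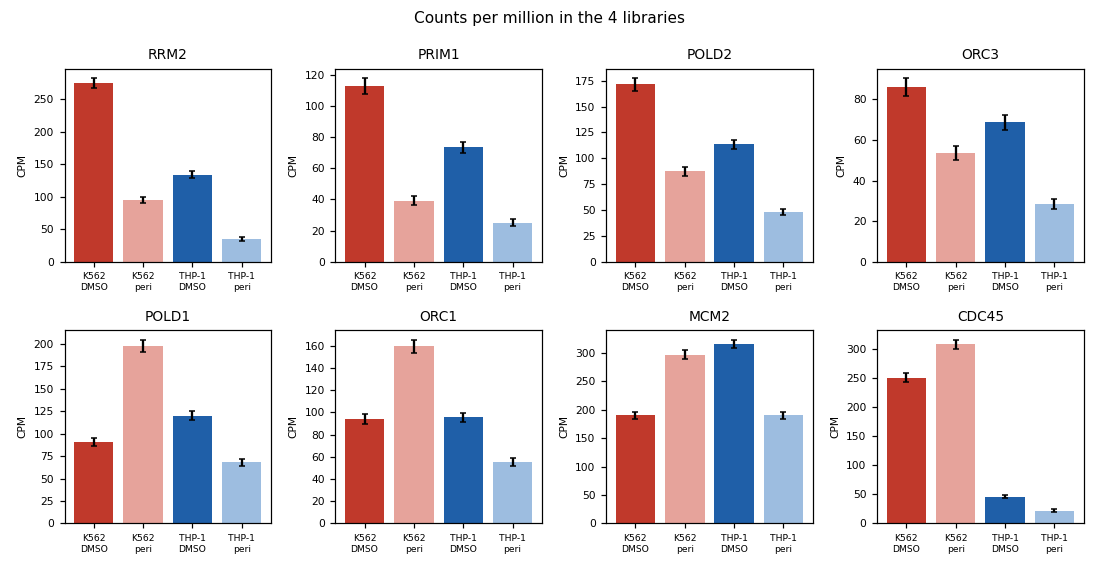
Level in CPM (vertical axes, each from 0) of RRM2, PRIM1, POLD2, ORC3, POLD1, ORC1, MCM2 and CDC45 in the 4 libraries, DMSO in dark and periplocin (peri) in light bars, K562 in red and THP-1 in blue, with 95% counting intervals. The upper 4 genes are lower in periplocin in both lines, while the lower 4 are higher in periplocin in K562 and lower in THP-1.

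Of the 11 roles, the MCM2-7 helicase had the largest median difference between the lines, -1.18 on the log2 scale (THP-1 minus K562). In K562, 5 of its 6 subunits were higher in periplocin and MCM7 was lower, and in THP-1 all 6 were lower, each beyond counting error. The summed level of the ring was 1659 CPM in K562 DMSO and 2048 in K562 periplocin, and 2147 and 1478 in the same order in THP-1. MCM2 (ENSG00000073111, chr3:127598223-127622436, plus strand) had 3114 and 4914 counts in K562 (0.63, SE 0.03) and 6509 and 3373 in THP-1 (-0.72, SE 0.03). MCM5 had 1715 and 2927 counts in K562 (0.74, SE 0.04) and 3858 and 2431 in THP-1 (-0.44, SE 0.04). MCM3 and MCM4 had similar values, a log2 fold change of 0.64 and 0.68 respectively in K562, against -0.53 and -0.54 in THP-1 (SE between 0.02 and 0.03). MCM6 differed from these in K562, where its 3816 and 4150 counts gave a log2 fold change of only 0.09 (SE 0.03), and in THP-1 it was the lowest of the ring at -0.81 (SE 0.03). MCM7, which like the others forms 1 of the 6 positions of the ring, had 10275 and 8667 counts in K562 (-0.27, SE 0.02) and 6209 and 4747 in THP-1 (-0.16, SE 0.03). The subunits are equal in number in the protein ring, but their RNA was not. The ratio of the most to the least abundant subunit per kb of transcript was 7.16 in K562 DMSO (MCM7 over MCM5), 3.54 in K562 periplocin, 2.80 in THP-1 DMSO (MCM3 over MCM5) and 2.63 in THP-1 periplocin. None of the 6 subunits passed the 2-fold limit in either line. In the annotation 30.7% of the exon bases of MCM2 overlap an antisense transcript that was not analysed here.

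**Figure D4:**
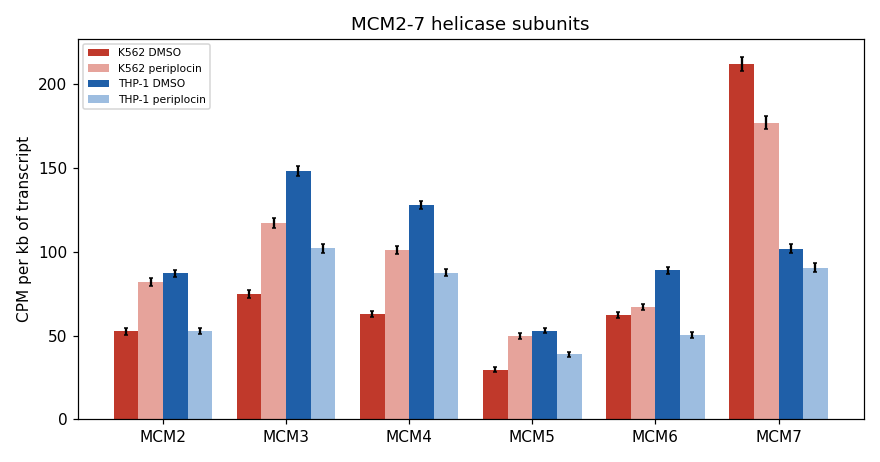
Level of the 6 MCM2-7 subunits in CPM per kb of transcript (vertical axis, from 0) in the 4 libraries, with 95% counting intervals. MCM7 stands highest in both K562 libraries, at 212 and 177, and MCM2 to MCM5 are higher in K562 periplocin than in K562 DMSO but lower in THP-1 periplocin than in THP-1 DMSO.

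The factors that load the helicase were less uniform. ORC1, the largest ORC subunit and an ATPase (ENSG00000085840, chr1:52372829-52404459, minus strand), had 1539 and 2641 counts in K562 (0.75, SE 0.05) and 1972 and 976 in THP-1 (-0.78, SE 0.06). Like POLD1 and MCM2 to MCM5, it was higher in K562 periplocin and lower in THP-1 periplocin. ORC3, a core subunit (ENSG00000135336, chr6:87590067-87667453, plus strand), was lower in both lines, with 1412 and 885 counts in K562 (-0.70, SE 0.06) and 1416 and 503 in THP-1 (-1.26, SE 0.07). ORC4 was the one member higher in both lines and the one higher beyond counting error in THP-1, where it had 857 and 1047 counts (0.52, SE 0.07). In K562 its 1820 and 1937 counts were within counting error (0.06, SE 0.05). ORC2 and ORC6 were higher in K562 (0.60, SE 0.07, and 0.74, SE 0.08) and within counting error in THP-1 (-0.01, SE 0.08, and -0.13, SE 0.09). ORC5 was lower in both, at -0.75 (SE 0.08) and -0.64 (SE 0.12). The 6 subunits thus ran from -0.75 to 0.75 in K562, and in THP-1 from -1.26 to 0.52.

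CDC6 and CDT1 are the loading factors that ORC recruits, and geminin (GMNN) binds and blocks CDT1 after the start of S phase. CDC6 had 2272 and 1443 counts in K562 (-0.68, SE 0.05) and 1709 and 1096 in THP-1 (-0.41, SE 0.06). CDT1 had 2475 and 2243 counts in K562 (-0.17, SE 0.04) and 3196 and 1355 in THP-1 (-1.01, SE 0.05). Geminin had 980 and 1586 counts in K562 (0.67, SE 0.06) and 305 and 212 in THP-1 (-0.29, SE 0.13). The count ratio of CDT1 to its inhibitor was lower in periplocin in both lines, going from 2.53 to 1.41 in K562, and in THP-1 it went from 10.5 to 6.39. Among the activators of the loaded helicase, CDC45 (ENSG00000093009, chr22:19479459-19520612, plus strand) had 4106 and 5096 counts in K562 (0.29, SE 0.03) and 947 and 394 in THP-1 (-1.03, SE 0.09). GINS4 had 850 and 386 counts in K562 (-1.17, SE 0.09) and 1031 and 477 in THP-1 (-0.88, SE 0.08), and 21.2% of its exon bases overlap an antisense transcript that was not analysed here. GINS2, which sits in the same complex of 4 proteins, had 949 and 1274 counts in K562 (0.40, SE 0.06) and 579 and 325 in THP-1 (-0.60, SE 0.10). GINS1 and GINS3 were lower in both lines (-0.34 and -0.89 in K562, -0.96 and -0.76 in THP-1), and so was MCM10, which helps to start unwinding (-0.36 and -0.68). The GINS values spanned 1.56 log2 units in K562 and 0.36 in THP-1. All 6 activators were lower in THP-1 periplocin by more than 1.5-fold.

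The clamp, its loader and the proteins around the fork were not among the members called by the 2-fold limit, but many of them differed beyond counting error. PCNA, the clamp, had 3100 and 2784 counts in K562 (-0.18, SE 0.04) and 2387 and 1995 in THP-1, where the change was within counting error (-0.03, SE 0.04). It differed in this from most members in THP-1. The clamp loader subunits RFC1 to RFC5 lay between -0.33 and 0.06 in K562. In THP-1 RFC4, at 0.07 (SE 0.07), stood apart from RFC1, RFC2, RFC3 and RFC5, which lay between -0.91 and -0.54. RPA1, the large subunit of the protein that coats single-stranded DNA, had 2225 and 2469 counts in K562 (0.12, SE 0.04) and 1845 and 979 in THP-1 (-0.68, SE 0.06). RPA2 and RPA3 were lower in both lines (-0.39 and -0.52 in K562, -0.31 and -0.86 in THP-1). LIG1, the ligase that seals Okazaki fragments, had 1068 and 1225 counts in K562 (0.17, SE 0.06) and 1941 and 858 in THP-1 (-0.95, SE 0.06). FEN1, which trims their flaps, was lower by about the same amount in both (-0.28 and -0.25). Of the fork protection complex, TIPIN was lower in both lines (-0.97 and -0.89) on few counts, which were 312 and 162 in the K562 libraries and 401 and 185 in those of THP-1. Its partner TIMELESS was at -0.09 in K562 and -0.55 in THP-1, and the checkpoint adaptor CLSPN at 0.16 and -0.20. Of the histone chaperone CAF-1, CHAF1B was lower in both (-0.73 and -0.85), and CHAF1A was within counting error in K562 (-0.06) and lower in THP-1 (-0.37).

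The difference between the lines was tested gene by gene, as the line by treatment term of a Poisson model over the 4 libraries. At an adjusted p below 0.05 and a difference of at least 2-fold, 9 members (18.4%) had a lower log2 fold change in THP-1 and 0 a higher one, where 9.65% and 10.7% of 14737 genes did so. They were POLD1, ORC1, CDC45, MCM2, MCM3, MCM4, MCM5, LIG1 and GINS2. All 9 were higher in periplocin in K562 and lower in THP-1. The largest difference was that of POLD1, at -1.93 on the log2 scale, and MCM2 differed by -1.36. Over the whole set, 35 of 49 members (71.4%) had the lower value in THP-1, against 52.7% of 10779 genes with at least 1 CPM in each line. In direction, 27 members were lower in both lines, ORC4 was higher in both, 19 were higher in K562 and lower in THP-1, and PRIM2 and RFC4 were lower in K562 and higher in THP-1, both within counting error in at least 1 line. Across the 49 members, which share their libraries, Pearson's r of the log2 fold changes was 0.45 and Spearman's rho 0.35, against 0.27 and 0.31 across the 10779 genes.

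**Figure D5:**
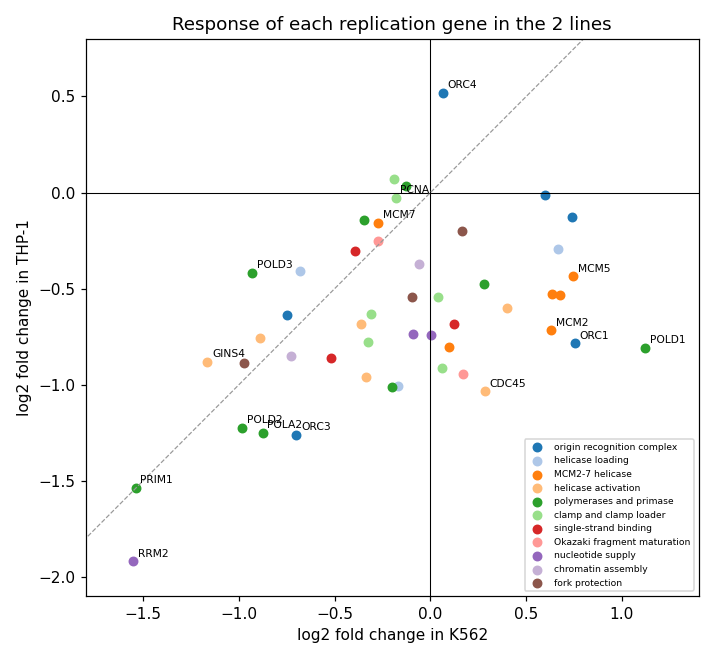
Log2 fold change in K562 (horizontal axis) against THP-1 (vertical axis) for each of the 49 genes, coloured by role, with a dashed line of equal change. RRM2, PRIM1, POLD2, POLA2 and ORC3 lie low and to the left, while POLD1, ORC1, CDC45 and 4 MCM genes lie to the lower right, higher in K562 and lower in THP-1.

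In DMSO the lines differed at least 2-fold in a smaller share of the members than of all genes tested. At least 2-fold, 3 members were higher in THP-1 DMSO than in K562 DMSO (MCM3, MCM4 and POLD3) and 5 were lower (CDC45, GMNN, RPA2, ORC5 and ORC4), where 21.7% of 16425 genes were higher and 19.5% lower. The calls depended on scaling, and with total counts only 2 members were higher and 8 lower. CDC45 was the most unequal, at 251 CPM in K562 and 45.9 in THP-1 (log2 difference -2.33). Geminin followed at 59.8 and 14.8 CPM (-1.89). These log2 differences used TMM-scaled library sizes, so they differ slightly from those of the CPM values. Per kb of transcript the most abundant members in K562 DMSO were MCM7, at 212 CPM per kb, PCNA at 139 and TYMS at 138. In THP-1 DMSO they were TYMS, at 189 CPM per kb, MCM3 at 148 and MCM4 at 128. This comparison uses the same DMSO libraries as the periplocin comparisons.

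A fit of cell line and treatment together over the 4 libraries takes the disagreement of the lines as its error. In edgeR's quasi-likelihood test 0 of 49 members, and 0 of 13584 genes, passed an adjusted p of 0.05. At an unadjusted p below 0.05 there were 7 members, all lower in periplocin (RRM2, PRIM1, POLD2, POLA2, GINS4, ORC3 and CHAF1B), where 5.68% of the genes were lower at that level. DESeq2 with the same terms called RRM2 (adjusted p = 0.000242) and PRIM1 (adjusted p = 0.00984), both lower, among 130 of 11250 genes.

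Genes around the replication fork that are not members were counted in lists of their own. Of 35 other replication factors, 2 (5.71%) fell at least 2-fold in K562 (POLD4 and MCMBP) and 6 (17.1%) in THP-1, and 0 rose in either line. Of all genes tested, 10.1% fell in K562 and 9.76% in THP-1, and 8.18% and 8.27% rose. The median log2 fold change of the 35 factors was -0.10 in K562 and -0.31 in THP-1. POLD4, the small subunit of polymerase delta, fell in K562 from 224 to 78 counts (-1.55, SE 0.19) and in THP-1 from 417 to 167 (-1.09, SE 0.13). PCLAF, which binds PCNA, fell in THP-1 from 2481 to 922 counts (-1.20, SE 0.06). Of 12 other enzymes of nucleotide supply, DCTPP1 fell in K562 (8.33%), and NME1 and SHMT1 fell in THP-1 (16.7%), with medians of -0.27 and -0.41. The 17 E2F and pocket protein genes, which encode the regulators of this program, had medians of -0.02 and -0.07. By the same exact binomial test they had 0 calls in both lines. Beyond counting error, 7 were lower and 5 higher in each line. Of all genes tested, 30% were lower and 29.4% higher in K562, and 31.2% and 30.3% in THP-1. With a 1.5-fold limit, 3 of the 17 (17.6%) were higher in K562 and 1 (5.88%) in THP-1, and 0 were lower. Of all genes tested, 15.4% and 15% were higher at that limit, and 17.4% and 17.6% lower. The highest log2 fold change of the 17 genes in K562 was 0.99. The difference between the lines was called for 1 of the 17 (5.88%), lower in THP-1, as for 9.65% of all genes tested. Of 19 genes of S phase entry, 10 were higher and 9 lower in K562 (median 0.00). In THP-1, 4 were higher and 15 lower (median -0.47). At least 2-fold, 3 of the 19 (15.8%) fell and 0 rose in K562, where 10.1% of all genes fell and 8.18% rose. In THP-1, 1 fell and 1 rose (5.26% each), where 9.76% of all genes fell and 8.27% rose. Among the 19 genes CDKN1A, which encodes the inhibitor p21, went opposite ways. It went from 825 to 386 counts in K562 (-1.12, SE 0.09) and from 500 to 2308 in THP-1 (2.44, SE 0.07). CCND1 and CCNE2 also fell in K562, from 1365 to 186 and from 394 to 180 counts, and in THP-1 CCNE1 fell from 488 to 163 counts (-1.35, SE 0.13).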

How the data were processed

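RNA from K562 and THP-1 cells kept in DMSO or 100 nM periplocin for 72 h was sequenced as poly-A libraries with paired-end reads of 150 bp, 1 library per condition. The authors deposited 1 table of expected counts per gene and library, not normalized and not pooled. The submitters' processing notes name HISAT2, StringTie 1.3.1 and hg38. Counting options and strand are not given in the sources used here. Between 87.4% and 88.3% of the values are whole numbers, and all were rounded. Ambiguous reads may have been divided between genes, so the true error is at least the counting error.

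edgeR 4.0.16 in R 4.3.3 gave TMM-scaled library sizes for each pair of libraries. The exact binomial test (dispersion 0) was run on every gene that had 1 or more counts in that pair, with Benjamini-Hochberg adjustment over all of them. Fold changes used a prior count of 0.125, and the SE came from the 2 counts. Differences between lines used a likelihood ratio test at dispersion 0, with TMM factors over the 4 libraries. The additive fit took genes reaching 10 counts in 2 or more libraries and had 1 residual degree of freedom, with DESeq2 1.42.0 as the alternative. The tests were run on simulated counts with planted changes. For the pairs of libraries and the difference between lines, these counts had counting error only, which is what those tests assume. The runs therefore check the code and do not measure the error in these data. Other dispersions, scalings, filters, prior counts and fold limits were tried.

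Positions and transcript lengths came from GENCODE release 29 on GRCh38, which holds 20094 of the 20348 identifiers. The length of a member was that of its longest principal coding transcript. A symbol was matched to 20310 of the identifiers. Exons of 20 members share bases with another gene. The named genes could be any member. Of each other list, all genes of lists of 8 or fewer and up to 5 called genes of longer lists, by size of change and with a mean of 5 CPM or more per line, could be named. Where no member called alike in both lines held an E2F word, the promoters printed were those of 3 members with the most words on chromosomes other than 8. Members and lists were chosen with earlier results of these data known. A further gene of the K562 marker list is not reported here.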

Additional observations from a re-analysis of the deposited data

Results flagged for a closer look

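For 9 members (18.4%) the response to periplocin differed between the cell lines in the test of that difference, which covers counting error only. The value was always lower in THP-1, and 9.65% of all genes tested were called in that direction. With a dispersion of 0.04 in place of 0, 1 member was called. As THP-1 minus K562 on the log2 scale, the difference was -1.93 for POLD1 and -1.54 for ORC1. Of the helicase and its activators, it was -1.36 for MCM2, -1.33 for CDC45, -1.22 for MCM4, -1.19 for MCM5, -1.17 for MCM3 and -1.01 for GINS2. For the ligase LIG1 it was -1.13.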

How the results depend on the processing

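The direction of all 49 members in each line was kept under TMM, DESeq2 size factors and total counts. The 12 called values (4 in K562 and 8 in THP-1) were recomputed under 6 settings of scaling, prior count and dispersion, and 18 of these 72 lost the call, 17 of them under another dispersion. With a dispersion of 0.04 between replicates in place of 0, K562 had 2 called members where it had 4, THP-1 had 5 where it had 8, and the difference between lines had 1 where it had 9. With 0.16 each had 0. A 1.5-fold limit gave 21 calls in K562 and 28 in THP-1, and no limit on size 42 and 44. In the additive fit 0 members were called by edgeR, 2 by DESeq2 and 7 at an unadjusted p below 0.05. CDT1 in THP-1 missed the 2-fold limit with DESeq2 size factors, which left 7 calls. The labels carry no replicate numbers to block on beyond the cell line, which is a term of the additive fit, and no library could be left out of a condition that has 1. Depth limits the precision least for MCM7 and MCM4, with up to 10275 and 11037 counts and an SE of 0.02, and most for POLE2 and TIPIN, with 151 counts at the lowest and an SE of 0.14.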

Other observations

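Genes of mitosis did not move with the replication genes in K562. All 21 genes of a mitosis list were higher in K562 periplocin, 12 of them (57.1%) at least 2-fold, where 8.18% of all genes tested were. The median log2 fold change of the 21 genes was 1.10. In THP-1 this median was 0.04 and 0 of them were called in the exact binomial test, with 15 beyond counting error (6 lower and 9 higher). Of all genes tested in THP-1, 8.27% rose and 9.76% fell at least 2-fold. In K562, KIF20A, a kinesin of cytokinesis, rose from 570 to 2696 counts, the kinase AURKA from 1083 to 4046 and the kinase PLK1 from 1276 to 4739. BUB1, of the spindle checkpoint, rose from 1777 to 5926 and CDC20, which it restrains, from 1376 to 4391. The difference between the lines passed the 2-fold limit for 10 of the 21 genes (47.6%), all with the lower value in THP-1. Of all genes tested, 9.65% did so in that direction. The globin genes HBZ, HBG1 and HBG2 rose in K562 from 2119 to 19908, from 7877 to 37482 and from 12616 to 58012 counts, and HBG1 and HBG2 are near-identical copies between which reads could be split. Of the 9 monocytic genes in THP-1, CTSS rose from 4421 to 11805 counts and FCGR1A from 1724 to 4006, CD68 and ITGAM also rose at least 2-fold, SPI1 was higher, and LYZ, with 3962 and 2752 counts, CD33, with 1352 and 760, CSF1R, with 3086 and 2286, and MNDA, with 634 and 446, were lower.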
